A study of Mus musculus with 24 samples.

Results

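The genes described are 33 factors of ribosome production and of the growth metabolism that goes with it, a set known to be induced by the transcription factor Myc, in thymic lymphomas that arose after carbon-ion irradiation. They were taken by name from the count and TPM tables, where all 33 were present among 21878 counted genes, and all 33 had enough counts to be among the 13121 genes tested against thymus. RNA was sequenced from 21 thymic lymphomas and 3 normal thymus samples of female B6C3F1 mice, a hybrid of inbred strains. Carbon ions, heavy charged particles with a dense track of ionization, had been given to the whole body in 4 weekly doses of 1.6 Gy, the first at an age of 4 to 5 weeks. The labels put this treatment on the thymus samples as well and mark those with 7W, a term they do not explain. According to the columns of the authors' filtered tables, 11 lymphomas carried a mutation of Ikzf1, a gene for a lymphoid transcription factor (the mutated set), and 10 did not (the unmutated set). RNA came from suspended lymphoma cells or thymocytes. Whether every lymphoma had a separate mouse as its source is not on the labels, and the p-values below cover only the variation among these libraries.

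Ribosomes are built in the nucleolus. RNA polymerase I makes a long precursor RNA there, small nucleolar ribonucleoproteins modify it, and separate sets of processing factors cut and fold it into the small and the large subunit. Myc binds E-boxes, of which CACGTG is the canonical form, near the start sites of many of these genes and raises RNA polymerase I activity, ribosomal protein output and the supply of nucleotides and polyamines. In the thymus, Myc is high in dividing early thymocytes and is a frequent oncogene of T-cell lymphoma.

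The E-box was looked for in promoters from RefSeq (GRCm38.p6, 250 bases before to 50 bases after the start site), as the letters CACGTG, which read the same on both strands. A promoter was given for 26 of the 33 genes (there was no entry for Bop1, Fbl, Npm1, Rrp12, Rrs1, Srm and Tbl3), and 5 of them (19.2%) held the motif, against 11.4% of 10036 tested genes and 8.09% of all 27025 symbols in the table. These 5 are shown because they are the members with a canonical site for Myc in this window, with the E-box in capitals. In Imp4 and Nop2 the site lay 121 and 60 bases before the start, and the windows shown are chr1:34439673-34439748 and chr6:125131788-125131863, both on the plus strand. In Wdr43, Utp20 and Mybbp1a it lay in the transcribed part, and only the bases around it are shown, from chr17:71616222-71616247 (plus strand), chr10:88826765-88826787 (minus strand) and chr11:72441357-72441376 (plus strand). A match is a string of letters and not a measured binding site.
Imp4: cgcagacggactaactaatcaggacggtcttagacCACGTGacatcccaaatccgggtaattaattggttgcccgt
Nop2: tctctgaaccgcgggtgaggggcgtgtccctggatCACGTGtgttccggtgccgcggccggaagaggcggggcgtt
Wdr43: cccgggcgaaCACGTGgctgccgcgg
Utp20: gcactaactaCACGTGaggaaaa
Mybbp1a: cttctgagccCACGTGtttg

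Library totals were 15 to 36.6 M counts in the lymphomas and 24.5 to 27.5 M in thymus, and no member had fewer than 669 counts in any library. Of the 14 T-lineage markers listed, 13 were counted, all of them in both groups, with a sum of 6124.1 to 11761.7 counts per 1e+06 counts (CPM, scaled by the TMM method) in the lymphomas and 13173.1 to 14086.5 CPM in thymus. The sum over 14 macrophage and monocyte markers was 348.1 to 1463.2 CPM in the lymphomas and 166.9 to 240.7 CPM in thymus, and that over 11 fibroblast markers was 60.9 to 1301.6 CPM against 13.3 to 17.5 CPM. Thymic epithelial, neutrophil and B-cell markers summed to at most 17, 67.5 and 259.1 CPM in any lymphoma and to 31.5 to 81.7, 59.3 to 108.8 and 50.1 to 84.7 CPM in thymus. Erythroid markers summed to 6.51 to 343 and 33.3 to 39.8 CPM. In bulk RNA, fewer cells of a type and less RNA per cell cannot be told apart.

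Myc itself (chr15:61985391-61990374, GRCm38) was at 81.4, 75.4 and 94.6 CPM in the 3 thymus libraries. In the lymphomas its lowest, median and highest levels were 145.2, 301 and 537.3 CPM, so every lymphoma lay above every thymus library. The log2 fold change was 1.84 ± 0.32 (SE; n = 21 and 3, edgeR quasi-likelihood test, adjusted p = 0.000196). Mycn, the paralog that thymocytes also transcribe, was at 4.05, 3.4 and 4.79 CPM in thymus and between 0 and 0.935 CPM in the lymphomas, with 42 counts over all 21 of them and 330 over the 3 thymus libraries. Its log2 fold change was -5.42 ± 0.87 (adjusted p = 8.24e-05).

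Against thymus, 30 of the 33 genes were higher in the lymphomas at an adjusted p below 0.05 and none was lower, while 15.4% of all genes tested were higher. The median log2 fold change of the 33 was 1.02, with a range from 0.1 to 1.79, beside a median of 0.07 over all genes tested, and 17 of the 33 were at least 2-fold higher. For 18 of the 33, all 21 lymphomas lay above all 3 thymus libraries, which was so for 6.33% of the genes tested. Of all calls in either direction, 50% were higher with edgeR, 37.5% with limma-voom and 35.4 and 37.9% with limma on log2(TPM + 1) and log2(TPM + 0.1). On these TPM scales the median of all genes was -0.06 and -0.1, and 10.9 and 11.7% of all genes tested were higher. There 29 of the 33 genes passed, with medians of 0.9 and 0.91.

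**Figure D1:**
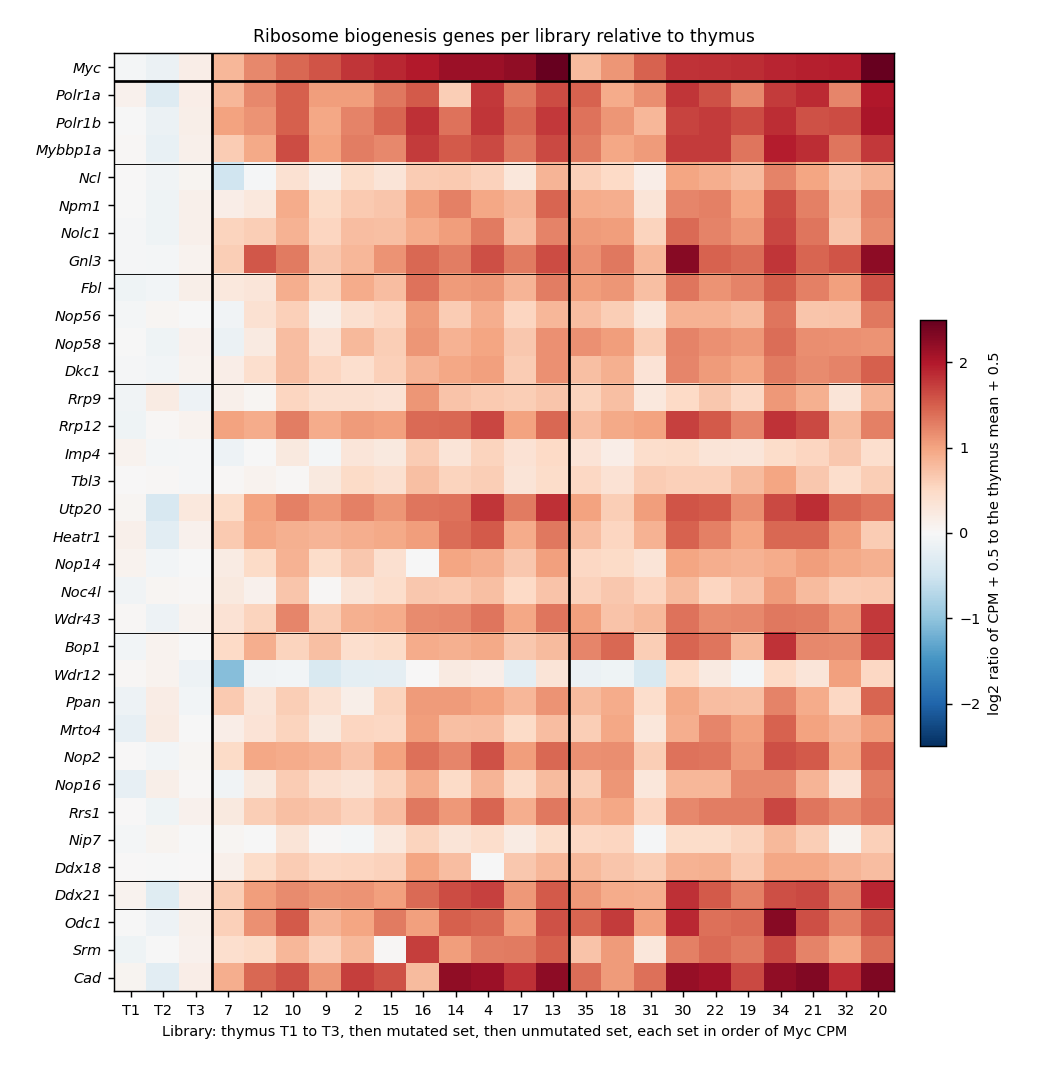
Level of Myc and of each of the 33 genes (vertical axis, grouped by role) in each library (horizontal axis), as the log2 ratio of CPM + 0.5 to the thymus mean. The 3 thymus libraries are near 0, lymphoma 7 is pale through most genes, and single pale cells stand out in lymphomas 4, 14, 15 and 16.

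The 3 genes of RNA polymerase I and its regulators all rose, with log2 fold changes of 1.42 to 1.52. Polr1a and Polr1b encode the pair of large catalytic subunits of the enzyme. Polr1b was at 34.1, 31 and 37.8 CPM in thymus and at 61.6, 97.7 and 143.1 CPM (lowest, median, highest) in the lymphomas, a log2 fold change of 1.52 ± 0.22 (adjusted p = 2.2e-05). Polr1a was at 50.8, 37.7 and 53.6 CPM in thymus and 72.7, 119 and 190.2 CPM in the lymphomas (log2 fold change 1.42 ± 0.24, adjusted p = 0.000151). No lymphoma overlapped the thymus range for either subunit, and lymphoma 20 was the highest for both. Mybbp1a, a nucleolar protein of ribosomal RNA synthesis and processing, was at 190.1, 163.5 and 202.3 CPM in thymus and 289.7, 469.3 and 726.4 CPM in the lymphomas (1.45 ± 0.23, adjusted p = 7.4e-05). Of 17 tested subunits and cofactors outside the 33, 4 were higher and 1 lower, with a median log2 fold change of 0.22. Over all genes tested, 15.4% were higher. Polr1e (0.53 ± 0.16) and Taf1d (0.5 ± 0.16), a further subunit and a part of the promoter selectivity factor, were among the higher. The lower gene was Taf1c (-0.8 ± 0.28, adjusted p = 0.03), which belongs to that same factor.

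The 4 nucleolar scaffold and chaperone genes differed in size of change. Gnl3 encodes nucleostemin, a nucleolar GTPase, and was at 79.8, 78.2 and 86.3 CPM in thymus and 124.3, 215.3 and 393.8 CPM in the lymphomas (1.44 ± 0.28, adjusted p = 0.000583). Its highest levels, 393.8 and 387.1 CPM, were in lymphomas 30 and 20, well above the next, 281.4 CPM in lymphoma 34. Npm1, nucleophosmin, had the highest TPM of the 33 genes, 2281.1 ± 527 (SD, n = 21) in the lymphomas against 1246.1 in thymus, and a log2 fold change of 0.97 ± 0.24 in counts. Processed copies of Npm1 elsewhere in the genome make the split of its reads uncertain. Nolc1, a phosphoprotein that binds small nucleolar ribonucleoproteins, was higher by 1.02 ± 0.2. Ncl, nucleolin, did not pass the test. It was at 1183.9, 1098.4 and 1232.2 CPM in thymus and 829.4, 1764 and 2774.2 CPM in the lymphomas (0.6 ± 0.24, adjusted p = 0.0568). In 19 lymphomas Ncl was above the thymus range and in lymphoma 7 below it. Without lymphoma 7 the adjusted p was 0.0169, and it was also under 0.05 without lymphoma 9, 12 or 31.

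All 4 core proteins of the small nucleolar ribonucleoproteins rose. Fbl, the methyltransferase fibrillarin of the box C/D particles, changed by 1.06 ± 0.22, and its partners Nop58 and Nop56 by 0.92 ± 0.23 and 0.72 ± 0.21. Nop56 was at 251.9, 268.9 and 256.1 CPM in thymus, a narrow range, and at 242.8, 417.7 and 658.4 CPM in the lymphomas. Dkc1, the pseudouridine synthase dyskerin of the box H/ACA particles, changed by 0.9 ± 0.22 and did not overlap thymus. Lymphoma 7 was the lowest of the 21 for all 4 genes, and lay under the thymus range for Nop56 and Nop58. In a list of 14 further genes of these particles and their assembly, 11 were higher and none lower (median 0.73). The assembly factors Shq1 (1.08 ± 0.22) and Naf1 (1.12 ± 0.25) and the ATPase Ruvbl1 (0.69 ± 0.15) had the smallest p.

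The 9 genes of the small subunit processome, the assembly that cuts the precursor on the way to the small subunit, all rose, from 0.36 to 1.34 on the log2 scale. Utp20, a very large scaffold protein, was at 49.9, 36.4 and 58.2 CPM in thymus and 66.3, 119.3 and 174.6 CPM in the lymphomas (1.34 ± 0.24). Rrp12, which acts in export of both subunits, was at 29.4, 32.4 and 33.7 CPM in thymus and 54.6, 74.6 and 112.4 CPM in the lymphomas (1.28 ± 0.21). Wdr43 and Heatr1, members of one early-binding subcomplex, changed by 1.1 ± 0.21 and 1.08 ± 0.2. None of these 4 genes overlapped between lymphomas and thymus. The changes of Nop14 and Noc4l, which work together, were 0.73 ± 0.19 and 0.6 ± 0.15. Rrp9, a protein of the U3 particle, changed by 0.6 ± 0.18 and Tbl3, a WD-repeat protein, by 0.51 ± 0.15. Tbl3 shares 37.3% of its exon bases with Noxo1 on the opposite strand and no source used here states the strand of counting. Noxo1 had 1200 counts over all 24 libraries. Imp4, a U3-associated protein with an E-box in its promoter window, had the smallest change of the 9. It was at 62.1, 56.6 and 57.7 CPM in thymus and 53.9, 74.2 and 94.6 CPM in the lymphomas (0.36 ± 0.13, adjusted p = 0.0433), with lymphoma 7 below the thymus range. Its call was lost without lymphoma 4, 13 or 21 or any 1 thymus library, and it passed in 6 of 10 other settings (adjusted p up to 0.139). Among 37 other small subunit factors 22 were higher and 1 lower (median 0.58). Nat10 (1.24 ± 0.18), Cirh1a (1.17 ± 0.18) and Nob1 (0.78 ± 0.13) had the smallest p, and Emg1, a ribosomal RNA methyltransferase, was lower (-0.41 ± 0.11).

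Of the 9 genes of large subunit assembly, 7 rose. Nop2, a methyltransferase of the large ribosomal RNA with an E-box upstream of its start site, was at 62.9, 59.7 and 64.8 CPM in thymus and 87.8, 139.4 and 192.7 CPM in the lymphomas (1.18 ± 0.2, adjusted p = 0.000181). Rrs1, which helps to load the 5S particle, changed by 1.07 ± 0.23. Bop1 and Wdr12 encode proteins of one complex, named PeBoW. Bop1 was at 88.2, 98.8 and 92 CPM in thymus and 125, 174.6 and 328.1 CPM in the lymphomas (1.04 ± 0.26, adjusted p = 0.00392), with no overlap. Wdr12 was at 101, 105.2 and 90.3 CPM in thymus and 47.3, 94.9 and 201.7 CPM in the lymphomas (0.1 ± 0.25, adjusted p = 0.798). The lymphomas thus lay on both sides of thymus for Wdr12, 9 above the thymus range and 7 below it. The difference between the changes of Bop1 and Wdr12 was not tested.

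Ppan, Mrto4, Nop16 and the RNA helicase Ddx18, further factors of the large subunit, changed by 0.83 ± 0.21, 0.79 ± 0.22, 0.72 ± 0.23 and 0.7 ± 0.16. Each was above the thymus range in 20 of 21 lymphomas. Nip7, a small RNA-binding factor, did not pass the test. It was at 61, 66.2 and 63.3 CPM in thymus and 61.3, 86.4 and 111.8 CPM in the lymphomas (0.37 ± 0.15, adjusted p = 0.0736), 16 of which lay above the thymus range. In 44 other genes of large subunit assembly 23 were higher and none lower (median 0.54), led by Gnl2 (0.81 ± 0.14), Rrp1b (1.21 ± 0.22) and Sdad1 (0.9 ± 0.18).

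Ddx21, an RNA helicase that acts in both transcription and processing, was at 208.6, 157.5 and 219.2 CPM in thymus and 297.2, 460.6 and 731.7 CPM in the lymphomas (1.35 ± 0.23, adjusted p = 0.000151). Again no lymphoma overlapped thymus.

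The 3 genes of polyamine and pyrimidine synthesis all rose. Cad, the enzyme that starts pyrimidine synthesis and a classical target of Myc, had the largest of all 33. It was at 104.7, 82.9 and 113.3 CPM in thymus and 173.9, 332.6 and 507.4 CPM in the lymphomas (1.79 ± 0.32, adjusted p = 0.000226). Odc1, the first enzyme of polyamine synthesis, was at 111.4, 102.6 and 121.8 CPM in thymus and 168.4, 299.5 and 542.2 CPM in the lymphomas (1.42 ± 0.25, adjusted p = 0.000222). Srm, spermidine synthase, was at 26.8, 28.9 and 31.3 CPM in thymus and 29.6, 61.2 and 97.7 CPM in the lymphomas (1.1 ± 0.29). Only lymphoma 15, at 29.6 CPM, was within the thymus range for Srm.

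The wider lists of nucleotide and polyamine genes held changes in both directions. Of 19 genes of purine and pyrimidine synthesis 12 were higher and 1 lower, with Impdh2 (1.1 ± 0.16), Atic (1.29 ± 0.22) and Ctps (0.97 ± 0.19) first by p. The lower gene, Impdh1 (-0.72 ± 0.24), encodes the other isoform of the enzyme of Impdh2. Of 13 polyamine genes 4 were higher and 3 lower, where 2022 of all 13121 genes tested were higher and 2022 lower. The higher ones included Mtap (1.62 ± 0.39), which salvages a by-product of polyamine synthesis, Eif5a (1.08 ± 0.27), whose protein carries a residue made from spermidine, and Amd2 (1.1 ± 0.32), which makes the aminopropyl donor. Those that fell, Smox (-1.82 ± 0.54), Sat1 (-0.56 ± 0.19) and Oaz1 (-0.42 ± 0.15), encode enzymes of polyamine breakdown and the antizyme that destabilizes the Odc1 protein.

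Of 78 ribosomal protein genes 33 were higher and none lower, with a median of 0.45. Rpl3 (1.19 ± 0.2), Rps6 (0.88 ± 0.16) and Rpl6 (0.78 ± 0.15) had the smallest p, and such genes have many processed copies that may share their reads. Of 14 RNA polymerase III genes 3 were higher, among them Polr3e (0.95 ± 0.2) and Polr3d (0.51 ± 0.17), and the repressor Maf1 was lower (-0.63 ± 0.19). In the Myc and Max network, 6 of 12 genes were lower, among them the antagonists Mxd3 (-1.09 ± 0.25) and Mxd1 (-1.03 ± 0.3) besides Mycn, and Myc alone was higher. Of 16 proliferation genes 2 were higher, Mcm6 (0.78 ± 0.24) and Mcm3 (0.68 ± 0.26), and the median of that list was 0.14. Over all genes, 2022 of the 13121 tested were higher and 2022 lower. The share called higher among RNA polymerase III and proliferation genes was thus near the background. The summed level of the proliferation genes was 3295 to 9063 CPM in the lymphomas and 4703 to 6987 CPM in thymus, so it overlapped. Markers of other cells moved with the comparison: 11 of 14 macrophage and 8 of 11 fibroblast markers were higher, 8 of 13 T-lineage, 8 of 10 tested epithelial and 9 of 10 tested neutrophil markers were lower, 1 of 6 tested erythroid markers was higher, and no B-cell marker passed. Their part in the result was not tested. Without the 3 lymphomas highest in macrophage markers, 29 of the 33 genes passed with a median of 1.03, and 15.3% of all genes were higher. The lowest macrophage sum of any lymphoma, 348.1 CPM, was above the highest of thymus, 240.7 CPM, so this step left that difference in place. The spread of the controls rests on 3 libraries, and without thymus 1, 2 or 3 the count was 24, 26 or 25 of the 33 genes. Over all genes, 8.22, 7.15 or 9.23% were then called higher, down from 15.4%.

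Each set of lymphomas was then compared with thymus in one model. In the mutated set 28 of the 33 genes were higher and none lower (13.1% of all genes were higher), with a median of 0.84, and in the unmutated set 32 were higher (18% of all genes), with a median of 1.12. Of all calls in these comparisons, 50.2 and 51% were higher with edgeR and 39.2 and 32.4% on log2(TPM + 1). In the mutated set Ncl (0.38 ± 0.21), Nop16 (0.54 ± 0.21), Imp4 (0.29 ± 0.13), Nip7 (0.25 ± 0.15) and Wdr12 (-0.11 ± 0.23) did not pass, and in the unmutated set Wdr12 (0.29 ± 0.24, adjusted p = 0.36) did not. Both comparisons use the same 3 thymus libraries. Without thymus 1, 2 or 3 the mutated set had 20, 19 or 22 genes past the threshold and the unmutated set 31 each time. The share of all genes called higher fell as well, to 6.94, 5.34 or 7.84% in the mutated set. In the unmutated set it fell to 10.9, 10.7 or 12.2%.

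**Figure D2:**
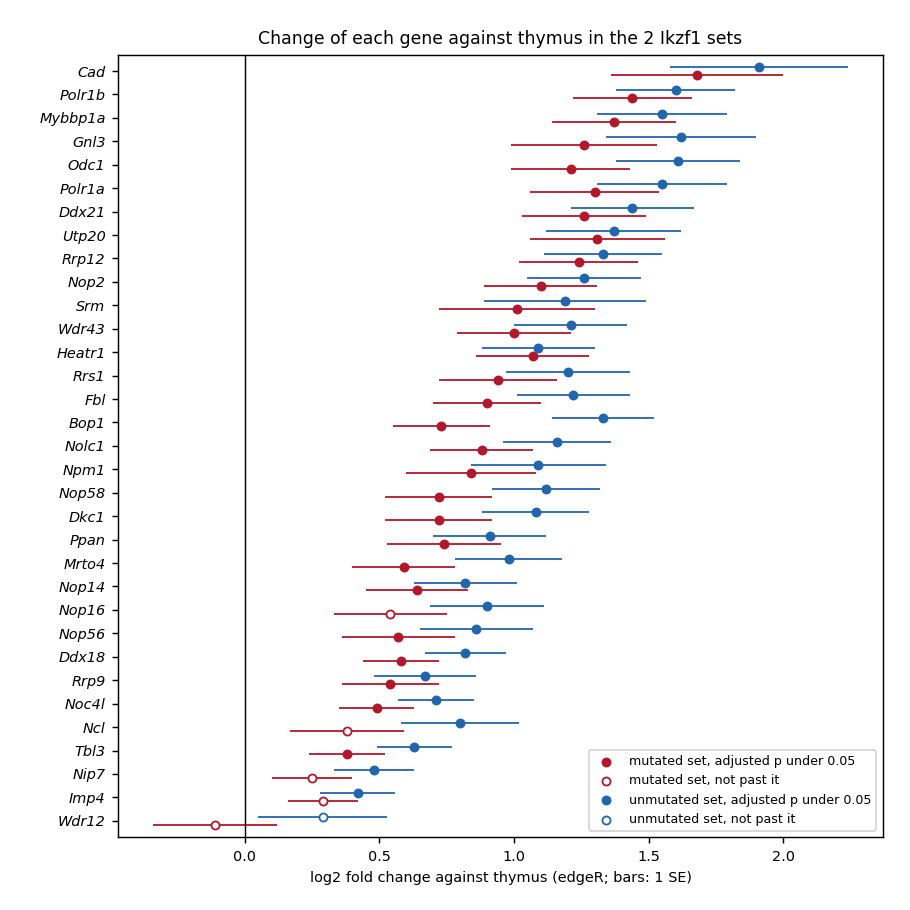
log2 fold change against thymus (horizontal axis, bars 1 SE) of each of the 33 genes in the mutated set (n = 11) and the unmutated set (n = 10), ordered by the change over all lymphomas. The point of the unmutated set lies to the right for each gene, most clearly for Bop1 (1.33 against 0.73).

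In the direct comparison of the sets, edgeR gave lower values in the mutated set for all 33 genes, against 49.6% of all genes tested. The median log2 fold change was -0.24 beside 0 over all genes. The 33 genes tended to move together: lymphoma 7 was among the 3 lowest for 30 of them and lymphoma 34 among the 3 highest for 26. Their common sign is thus not 33 separate observations. The differences ran from -0.6 to -0.02, with a median SE of 0.13. Bop1 alone passed, which is 3.03% of the 33, and 2.95% of all genes were called lower, so the count of calls over all 24 libraries was near the background. A further 15 genes had an unadjusted p under 0.05 but did not pass, and the share of all genes at that level is not given here. Nearest were Nop58 (-0.4 ± 0.13, adjusted p = 0.0589), Mrto4 (-0.39 ± 0.12, 0.0607) and Ncl (-0.41 ± 0.14, 0.0742). Heatr1 (-0.02 ± 0.13) and Utp20 (-0.06 ± 0.15) were near 0. Myc did not follow this order: it was at 305.7 ± 96.1 CPM (SD, n = 11) in the mutated set and 295.2 ± 106 CPM (n = 10) in the unmutated set, a log2 fold change of 0.05 ± 0.2 (adjusted p = 0.904). On the TPM scale, where the median of all genes shifted to 0.08 or 0.1, and likewise with only the libraries above 20 M counts, 30 of the 33 genes were below 0 and Heatr1, Utp20 and Rrp12 were above it. On the TPM scale 78.5 or 79.4% of all calls were higher in the mutated set, against 45.2% with edgeR. Removing 1 lymphoma changed the count of members called lower to 8 (without lymphoma 31), 4 (without 16) or 3 (without 13), where 4.42, 3.34 and 2.62% of all genes were called lower, and DESeq2 called 4, with 4.95% of all genes. The summed level of proliferation genes was 6382.6 ± 1450 CPM in the mutated and 7394.8 ± 1150 CPM in the unmutated set, with 3 of 16 lower, and that of fibroblast markers 595.5 ± 399 and 244.8 ± 100 CPM. Their part in the difference was not tested.

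Bop1 (chr15:76452989-76477277) was at 125 to 180.1 CPM in the 11 mutated lymphomas and at 143 to 328.1 CPM in the 10 unmutated ones (log2 fold change -0.6 ± 0.12, adjusted p = 0.011). It is the only one of the 33 genes on chromosome 15, which also carries Myc. The median log2 ratio to thymus over 495 chromosome 15 genes was at least 0.2 in 9 lymphomas, 7 of them in the unmutated set and 2 in the mutated set. In the 7 unmutated lymphomas with that raised median Bop1 was at 211.4 to 328.1 CPM and in the other 3 at 143 to 213.8 CPM. In the 2 mutated lymphomas with a raised median it was at 158 to 174.6 CPM, within the 125 to 180.1 CPM of the other 9. With the chromosome 15 median added to the model, a step chosen after the data were seen, the difference in Bop1 was -0.37 (adjusted p = 0.193) and the median of the 33 genes was -0.34, and calls over all genes dropped to 13 higher and 1 lower. None of the 33 passed edgeR's test then, and 14 had an unadjusted p under 0.05. The share of all genes at that unadjusted level is not given here.

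**Figure D3:**
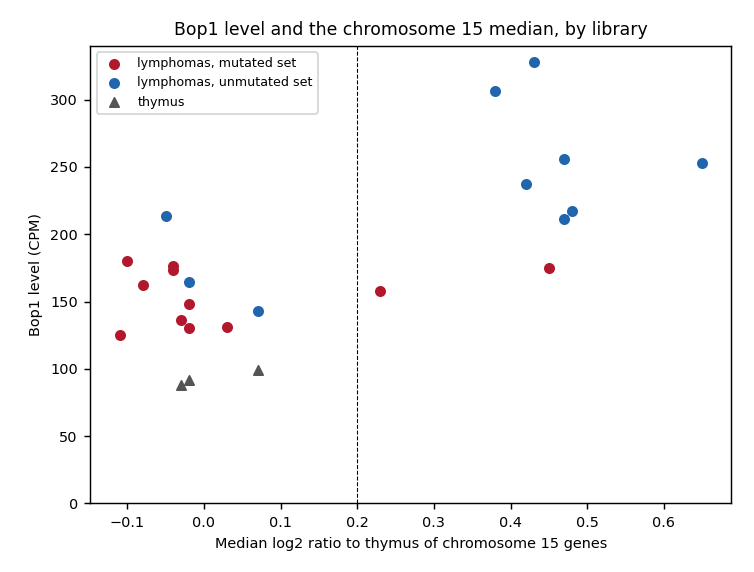
Bop1 level in CPM (vertical axis, from 0) against the median log2 ratio to thymus of chromosome 15 genes (horizontal axis) in each library, with a dashed line at 0.2. The 7 unmutated lymphomas right of the line lie between 211.4 and 328.1 CPM, and the 2 mutated lymphomas there lie at 158 and 174.6 CPM.

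The same chromosome recurred among the other growth genes. Outside the 33, the lists named here held 18 genes lower in the mutated set, where 2.95% of all genes tested were lower. Of these 18, 10 lie on chromosome 15, among them Polr2f, Polr2k, Pop1, Dcaf13, Rrp7a, Brix1, Rpl8, Rpl30 and Adsl. Neither the total of listed genes nor their share on chromosome 15 is given here. Of all 375 lower genes with a known place, 24.8% lie on chromosome 15, against 3.94% of the genes tested. Polr2f, a subunit that the RNA polymerases share, differed by -0.68 on the log2 scale (adjusted p = 0.0128). Elsewhere in the genome, Rps29 (-0.6), Eif5a (-0.55), Birc5 (-0.52), Nme1 (-0.49), Cdc20 (-0.44), Cdk1 (-0.4), Znhit3 (-0.38) and Dohh (-0.32) were also lower.

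Within the lymphomas alone, each gene was set against the Myc level, as the log2 change per doubling of Myc. All 33 slopes were above 0, against 48.2% of the 12388 genes tested, with a median of 0.35 beside -0.01 over all genes. Because the 33 genes tended to move together across lymphomas, their common sign is not 33 separate observations. At an adjusted p below 0.05, 8 of the 33 had a slope above 0, and 1.46% of all genes did. None had a slope below 0 past the threshold, where 2.62% of all genes stood. An unadjusted p under 0.05 was found for 24 of the 33, and the share of all genes at that level is not given here. The 5 steepest were Cad (0.68 ± 0.15, adjusted p = 0.0158), Utp20 (0.54 ± 0.11, adjusted p = 0.0117), Srm (0.53 ± 0.17, adjusted p = 0.0713), Ddx21 (0.51 ± 0.11, adjusted p = 0.0127) and Wdr12 (0.5 ± 0.16, adjusted p = 0.0798). Wdr43 (0.48), Polr1b, Mybbp1a and Rrs1 (0.46 each) and Dkc1 (0.44) made up the rest of those past the threshold. The shallowest slopes were those of Nip7 (0.14 ± 0.11), Ddx18 (0.15 ± 0.11) and Bop1 (0.16 ± 0.17). Wdr12 thus combined one of the smallest differences from thymus with one of the steepest slopes, and Odc1 the reverse, with a slope of 0.18 ± 0.17.

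**Figure D4:**
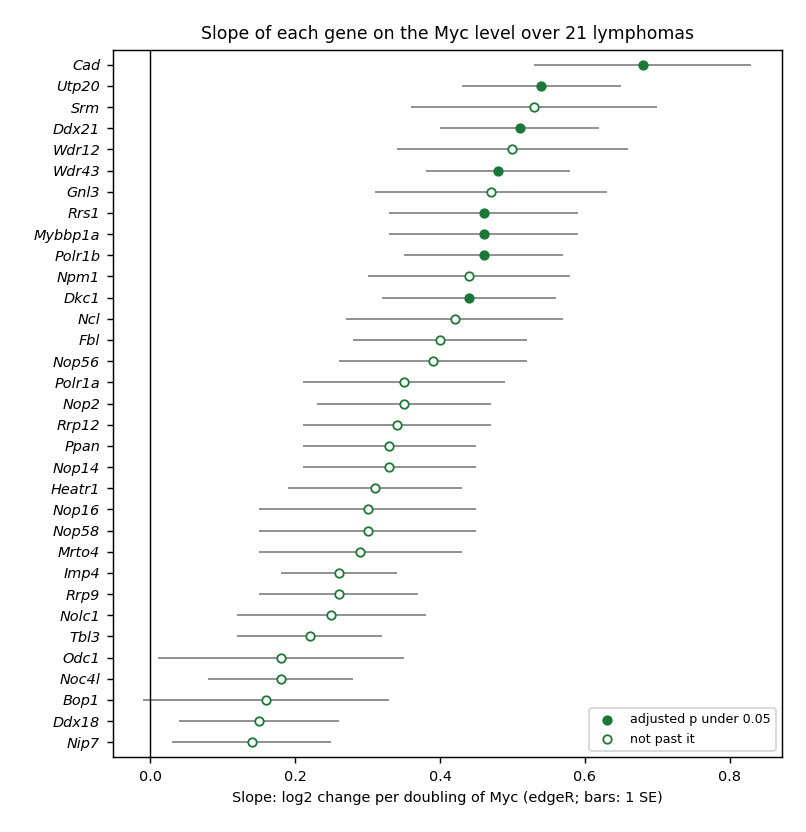
Slope of each of the 33 genes on the Myc level over 21 lymphomas (horizontal axis, log2 change per doubling of Myc, bars 1 SE), filled where the adjusted p was under 0.05. All points are right of 0, from 0.14 for Nip7 to 0.68 for Cad.

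The calls on the Myc level changed more with single libraries than the slopes did. Without lymphoma 7 none of the 33 passed edgeR's test, 19 having an unadjusted p under 0.05, and the calls above 0 over all genes fell from 181 to 29. The median slope was then 0.3, with 0.63 for Cad, 0.47 for Utp20 and 0.46 for Polr1b. Slopes of the 33 stayed above 0 when any 1 lymphoma was left out, except that of Bop1 without lymphoma 20. Without any one of lymphomas 4, 9, 12, 13, 14, 19, 21, 22 and 31, 5 of the 33 passed, with 0.956 to 1.36% of all genes above 0. Without lymphoma 35, 12 passed, with 1.46% of all genes and a median slope of 0.48. In the 13 lymphomas with at least 20 M counts no gene of any kind passed, and 12 of the 33 had an unadjusted p under 0.05. Neither this unadjusted count nor the one without lymphoma 7 has a share over all genes beside it. DESeq2 called 14 of the 33 over all 21 lymphomas, and 3.79% of all genes above 0. Of all calls in either direction, 35.8% were above 0 with edgeR and 58.2 and 62.7% on log2(TPM + 1) and log2(TPM + 0.1). On these TPM scales 6 and 5 of the 33 passed, and 1.52 and 1.41% of all genes tested did with a slope above 0. With the Ikzf1 set or the chromosome 15 median as a further term, 16 and 17 of the 33 passed, and 2.06 and 2.23% of all genes did with a slope above 0. With the rank of Myc 2 of the 33 passed, and 0.172% of all genes. Of the other lists, 6 of 37 small subunit factors, 4 of 44 large subunit factors, 1 of 14 ribonucleoprotein genes, 5 of 19 nucleotide synthesis genes and 2 of 14 RNA polymerase III genes had slopes above 0 past the threshold. None of 78 ribosomal protein genes or 16 proliferation genes did. In the same fit 1.46% of all genes tested had such a slope, so none of 78 or of 16 is near the background. The differences between lists were not tested.

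Lymphoma by lymphoma, the median log2 ratio of the 33 genes to thymus ran from 0.26 to 1.49. It was 0.785 ± 0.298 (SD, n = 11) in the mutated and 1.1 ± 0.264 (n = 10) in the unmutated set. Lymphoma 7, of the mutated set, was the lowest, with only 24 of 33 genes above the thymus range, and held the lowest level of the 21 for 18 genes. It also had the second-lowest Myc (149.2 CPM) and the lowest sum of proliferation genes (3295 CPM). Lymphomas 12 (0.48) and 9 (0.55) came next. The highest were lymphoma 34 (1.49), which held the top level for 15 genes at a middling Myc of 315.6 CPM, lymphoma 20 (1.32), with the highest Myc, 537.3 CPM, and the top level for 9 genes, and lymphomas 13 and 30 (1.25 each). Lymphoma 35 had the least Myc, 145.2 CPM, and a median of 0.8. Lymphoma 17, with the third-highest Myc (389.3 CPM), had a median of 0.84.

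**Figure D5:**
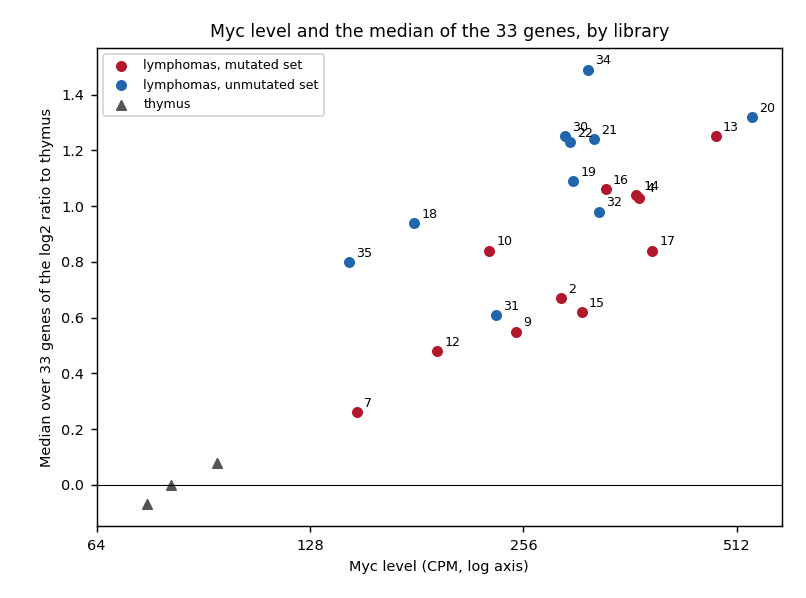
Median log2 ratio to thymus over the 33 genes (vertical axis) against the Myc level in CPM (horizontal axis, log scale) in each library, with lymphomas numbered. Lymphoma 7 lies lowest (0.26), lymphomas 20 and 13 lie far right at 1.32 and 1.25, and lymphoma 35 lies at 0.8 with the least Myc.

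Some genes were low in 1 lymphoma while the other members there were not. Of the 8 values furthest below what both the gene and the lymphoma would give, a selection made after the data were seen, 5 lay where the neighbouring genes were low as well. In lymphoma 16, Cad was at 173.9 CPM and Nop14 at 46.2 CPM, against medians of 332.6 and 85.4 CPM over the lymphomas, while the same lymphoma had the highest Srm, Rrp9 and Ddx18. Both genes lie on chromosome 5, at 31054780 and 34638536 (GRCm38), and the genes tested within 5 Mb of Cad and of Nop14, 82 and 98 in number, had medians of -0.84 and -0.8 (log2 ratio to the median lymphoma) in lymphoma 16. Ddx18 in lymphoma 4 (94.1 CPM against 152.8), Polr1a in lymphoma 14 (72.7 against 119) and Srm in lymphoma 15 (29.6 against 61.2) were the other cases, with neighbour medians of -0.66, -0.66 and -0.61. The medians over all genes of these lymphomas were 0. For Heatr1 in lymphoma 20 and for Utp20 and Cad in lymphoma 18, the neighbours lay between -0.07 and 0.01. Of the 8 values furthest above, Gnl3 in lymphoma 30 and Bop1 in lymphoma 18 had neighbour medians of 0.5 each, Wdr12 in lymphoma 32, at 201.7 CPM, one of 0.29, and Gnl3 in lymphomas 12 and 20 ones of 0.26 and 0.16. For Nop16 in lymphomas 18 and 19 and Ppan in lymphoma 7 the neighbours lay between 0 and 0.04.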

How the data were processed

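Poly(A) RNA was sequenced. Tools named in the submitters' processing notes were HISAT2 2.0.1, cutadapt 1.9.1 and HTSeq 0.6.1, besides SAMtools and edgeR, on GRCm38.p6. No source used here gives the settings or whether counting used strand. Raw counts per gene symbol and a TPM table were deposited by the authors for all 24 libraries. The filtered tables hold the same counts for the genes with CPM above 1 in at least 2 libraries, and their columns gave the Ikzf1 set of each lymphoma. The CPM table made for a Grb10 comparison was left out.

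The counts went through edgeR 4.0.16 in R 4.3.3 (TMM, filterByExpr, estimateDisp, glmQLFit, glmQLFTest), with Benjamini-Hochberg adjustment over all genes tested and a threshold of 0.05: a model of 2 groups over 24 libraries, a model of 3 groups for the sets, and a slope on log2 CPM of Myc over the 21 lymphomas. SE is the log2 fold change over the root of F. No pair of libraries agreed within sampling noise (chi-square per degree of freedom of at least 9.5). Alternatives were other size factors and filters, DESeq2 1.42.0, limma 3.58.1, added terms and left-out libraries. The tests were also run on simulated counts of independently drawn genes. The planted changes were larger than any slope or set difference of the members, so effects of that smaller size were not covered. Gene positions come from GENCODE M21.

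All 33 genes are named. Full statistics are given for the 6 largest and 3 smallest changes against thymus and those that did not pass, for genes past the threshold between the sets or the 3 nearest, and for the 5 steepest slopes. Of each list up to 3 genes with the smallest p, and those against the trend, are named. A gene of these lists is not reported here. The 33 genes and the 17 lists were chosen with earlier results of these data known. The labels give 1 batch date for all samples.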

Additional observations from a re-analysis of the deposited data

Results flagged for a closer look

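Within the unmutated set (n = 10), 3 of the 33 genes had 1 lymphoma far from the others by Dixon's criterion. The critical value used was that for 10 samples, and no result of the criterion is given here for the mutated set. Chance alone marks about 1 in 20 groups. The share of all genes that the criterion marks in these lymphomas is not given here, so the 3 are listed without a background. Nop58 was at 301.6 CPM in lymphoma 31, the lowest, and the next was at 407 CPM. Noc4l was at 136.1 CPM in lymphoma 34, the highest, with the next at 113.8 CPM. Wdr12 was at 201.7 CPM in lymphoma 32, the highest, with the next at 140.7 CPM. Between the sets, the changes of Bop1 against thymus differed by a log2 fold change of -0.6 in the test of the difference itself.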

How the results depend on the processing

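Against thymus, the count of the 33 genes past the threshold was 29 to 32 under the other filters, size factors, tools and depth, and 24 to 31 when 1 library was left out, with medians of 0.97 to 1.06. Nop56, Rrp9, Tbl3, Mrto4, Nop16 and Imp4 lost the call without a thymus library, and Imp4 also without lymphoma 4, 13 or 21, on both TPM scales, in the deeper libraries and without the 3 lymphomas highest in macrophage markers. The mutated set had 27 to 29 and 19 to 30 genes, and the unmutated set 30 to 32 and 31 to 32. Under the other settings, 10.9 to 20.5% of all genes were higher over all lymphomas, 9.46 to 18.2% in the mutated and 11.5 to 22% in the unmutated set. When 1 library was left out, 7.15 to 16.9% of all genes were higher over all lymphomas. That share was 5.34 to 14.9% in the mutated and 10.7 to 19.2% in the unmutated set. Wdr12 turned to -0.04 with limma on either TPM scale. Between the sets, DESeq2 called 4 of the 33 (Bop1, Mrto4, Ncl and Nop58), and 4.95% of all genes lower. Libraries of at least 20 M counts or the added chromosome 15 term called 0 (Bop1 -0.64, adjusted p = 0.0561, and -0.37). With these 0.607 and 0.00762% of all genes were called lower, so 0 of the 33 is near the background. There, 4 and 14 had an unadjusted p under 0.05, with no share over all genes given here. Rrp12, Utp20 and Heatr1 turned to 0.04, 0.04 and 0.11 on log2(TPM + 1), to 0.04, 0.05 and 0.11 on log2(TPM + 0.1) and to 0.04, 0.13 and 0.21 in the deeper libraries. Leaving out 1 library gave counts of 1 to 8 (1.34 to 4.42% of all genes called lower), Utp20 from -0.13 to 0.01 and Heatr1 from -0.07 to 0.04. The counts on the Myc level follow with the share of all genes called with a slope above 0 in brackets. DESeq2 called 14 (3.79%), the Ikzf1 set term 16 (2.06%) and the chromosome 15 term 17 (2.23%). Limma on log2(TPM + 0.1) called 5 (1.41%), the library total term 5 (1.2%), the rank of Myc 2 (0.172%) and the deeper libraries 0 (0%). Leaving out 1 lymphoma gave 0 to 12 genes (0.231 to 2.03%), median slopes from 0.3 to 0.48 and a slope of Bop1 from -0.02 to 0.26. Leaving out the lymphomas with the most and the least Myc, added after the data were seen, gave a median of 0.49 with 10 genes (1.92%). The cause of these shifts was not tested, and the deeper subset also held fewer libraries. No paired analysis was possible because the mutated and unmutated sets share no library number and the lymphomas share only 1 with thymus.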
